A study of Mus musculus with 311 samples.

Results

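Mvk, Mvd, Idi1, Fdps and Fdft1 encode enzymes that carry mevalonate to squalene, and they are described here as 5 of the 11387 genes measured in mouse liver. They were chosen by their place in the pathway, and every probe named for 1 of them was read: 4 probes for Fdps and 1 probe for each of the others. Total RNA from 311 livers was hybridized to 2-color arrays, 1 array per animal, with the animal in Cy3 and a pool of equal RNA portions from all animals in Cy5. The animals were F2 offspring, female and male, of a cross between the strains C57BL/6J and C3H/HeJ. Both parental strains were ApoE null, so every animal lacked apolipoprotein E, the ligand through which the liver clears remnant lipoproteins, and every animal ate a high-fat Western diet from week 8 to week 24 of age. No animal on a standard diet and none with ApoE was analysed here. The labels put all arrays in 1 group and do not give the sex of single animals.

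Each value is the log10 of the ratio of the animal to the pool, so 0 means the pool's own level and positive values a higher level than in the pool. The base and the direction of the ratio are not stated in the value table and were derived from it. Over all probes, the slope of the mean on the variance was -0.846. A base of 10 would give -1.15 with the animal on top and 1.15 with the pool on top. Natural logs would give -0.5 and a base of 2 -0.347. The slope lay nearest to base 10 but between it and natural logs, so the base is less sure than the direction. Folds given here rest on base 10. A ratio gives no level of its own, so enzymes were not ranked by abundance. The liver identity of the samples could not be read from it either, although 4 of 10 hepatocyte markers were measured. Animals were also read in 2 sets according to Eif2s3y, a gene of the Y chromosome whose values fell into separate clusters: 155 Eif2s3y-high arrays lay above -0.5 (lowest -0.219, median 0.358, highest 0.527) and 156 Eif2s3y-low arrays lay at or below it (lowest -1.76, median -1.46, highest -0.875). Only 5 arrays lay between -1 and 0. No enzyme probe fell into clusters.

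The mevalonate pathway builds isoprene units, from which cells make cholesterol, dolichol, ubiquinone and the lipid anchors of proteins. Mvk, mevalonate kinase, adds the first phosphate to mevalonate; Mvd, mevalonate diphosphate decarboxylase, makes isopentenyl diphosphate; and Idi1 converts this to its reactive isomer. Fdps, farnesyl diphosphate synthase, joins such units, and Fdft1, squalene synthase, couples the products to squalene, the first step committed to sterols. Genes of the pathway are known targets of SREBP-2, encoded by Srebf2, a transcription factor that is released from the endoplasmic reticulum when sterols are scarce; NF-Y, which binds CCAAT boxes, and Sp1, which binds GC boxes, act with it.

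The stretch upstream of the start site is shown for the members with an entry in the promoter table used, since the enzymes moved together over animals. These 3 of 5 windows hold the 250 bases before the RefSeq start in the mouse build GRCm38.p6, written 5′ to 3′ on the strand of the gene, with matches to CCAAT or GGGCGG on either strand in capitals.
Mvk, chr5:114444019-114444268, plus strand: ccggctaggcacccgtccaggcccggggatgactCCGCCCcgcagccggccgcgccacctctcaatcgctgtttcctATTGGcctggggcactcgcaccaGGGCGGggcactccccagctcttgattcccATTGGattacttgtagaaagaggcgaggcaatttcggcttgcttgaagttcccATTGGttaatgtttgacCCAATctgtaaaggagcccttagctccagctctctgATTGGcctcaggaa
Mvd, chr8:122443423-122443672, minus strand: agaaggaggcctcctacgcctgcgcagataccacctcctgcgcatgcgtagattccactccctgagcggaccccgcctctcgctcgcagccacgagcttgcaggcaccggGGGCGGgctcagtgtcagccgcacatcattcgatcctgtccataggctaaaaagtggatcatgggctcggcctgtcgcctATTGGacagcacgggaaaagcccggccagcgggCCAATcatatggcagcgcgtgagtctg
Idi1, chr13:8885356-8885605, plus strand: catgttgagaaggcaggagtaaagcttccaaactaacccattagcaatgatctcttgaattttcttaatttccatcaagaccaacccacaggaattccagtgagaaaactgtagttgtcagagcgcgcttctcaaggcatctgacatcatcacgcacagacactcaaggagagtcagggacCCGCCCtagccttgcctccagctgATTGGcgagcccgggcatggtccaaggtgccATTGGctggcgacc
The Mvk window held 5 CCAAT matches and 2 GGGCGG matches, and the windows of Mvd and Idi1 each held 2 and 1. Over 32851 mouse promoter windows of the same length, 33.8% held at least 1 CCAAT match, 10.1% held 2 or more, and 32.7% held GGGCGG. TCACNCCAC, letters of a sterol regulatory element, was in 1.05% of all windows, and the E-box CACGTG in 6.02%; neither was found in these 3 windows. No match overlapped another. A match of letters is not a binding site, and the array data do not bear on any single match.

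Spread over animals separated Mvk from the other enzymes. The SD of Mvk was 0.0485 on the log10 scale, below that of a typical gene, while Mvd, Idi1, Fdps and Fdft1 varied 1.72 to 2.28 times as much as the median gene. Values are given over 311 animals for each enzyme, as the lowest, the median and the highest log10 ratio. Mvk ran from -0.121 over 0.00159 to 0.199, and Mvd from -0.302 over -0.0251 to 0.515. Idi1 ran from -0.424 over -0.0557 to 0.547. The median gene had an SD of 0.0667, and the share of all genes with a smaller SD was 21.6% for Mvk, 88.7% for Mvd and 92.1% for Idi1. Between the 5th and 95th percentile of animals this is a 1.41-fold span for Mvk, against 2.54-fold for Mvd and 3.18-fold for Idi1.

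Fdps and Fdft1, the enzymes that end the sequence, also varied widely. Fdps ran from -0.499 over -0.106 to 0.425, with an SD of 0.151, larger than in 92.0% of genes, and a span of 3.09-fold. Fdft1 ran from -0.293 over -0.00164 to 0.435, with an SD of 0.115, larger than in 84.2% of genes, and a span of 2.34-fold. Fdps lay under the pool in 79.1% of animals; for Fdft1 this share was 51.1% and for Mvk 49.2%. The mean ratio of Fdps over animals was 0.858, where a pool of equal portions would give 1.

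High values tended to meet in the same livers. The animal with F2 number 210 had the highest Mvk (0.199), Idi1 (0.547) and Fdft1 (0.435) and ranked 2 for Mvd (0.467), but ranked 17 for Fdps (0.189). Number 265 had the highest Mvd (0.515) and ranked 2 for Idi1 and Fdft1. The highest Fdps (0.425) was found in number 153, in which Fdft1 ranked 180 (-0.0231). Of the 311 animals, 61 (19.6%) lay above the median for all 5 enzymes and 43 (13.8%) for none. When the 31 highest animals were taken for each enzyme, 86 animals were in at least 1 such set, 22 in 3 or more and 3 in all 5. Mvd and Fdft1 shared 15 of their 31 highest animals, and Fdps and Fdft1 shared 6.

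**Figure D1:**
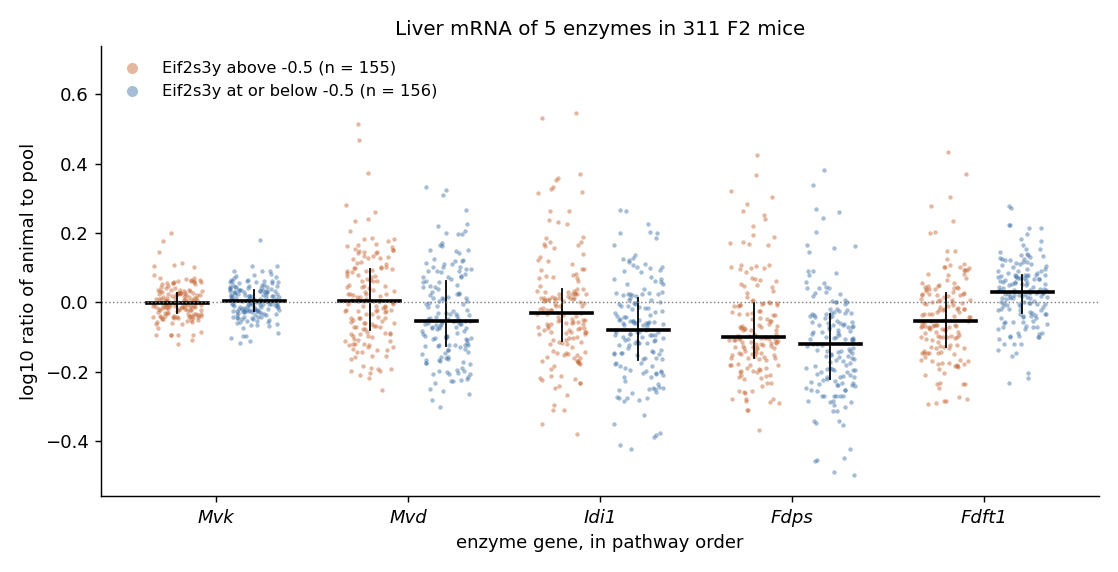
Each point is 1 animal, plotted by its log10 ratio to the pool for the 5 enzymes, with Eif2s3y-high animals (n = 155) left of Eif2s3y-low animals (n = 156); thick bars are medians and thin bars the quartiles. Mvk is the narrowest, Fdps lies mostly under 0, and the Eif2s3y-high animals sit above the Eif2s3y-low animals for Mvd, Idi1 and Fdps but below them for Fdft1, with wide overlap throughout.

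All 10 pairs of enzymes were positively correlated over animals, most closely Mvd with Idi1 and least closely Fdps with Mvk or Fdft1. Each test was a limma fit of all genes on 1 enzyme, the earlier of a pair, with Benjamini-Hochberg adjustment over 11386 genes at 0.05, and by this rule every enzyme had the other 4 among its positive genes, with adjusted p from 1.63e-49 to 0.00167. Such calls were common: 19.8% of all genes were called positive and 16.7% negative with Mvk, 10.7% and 11.7% with Mvd, 12.4% and 14.9% with Idi1, 14.3% and 17.2% with Fdps, and 16.5% and 17.4% with Fdft1. A Pearson r of 0.5 or more was rare, at 0.0703% of genes for Mvk, 0.369% for Mvd, 0.220% for Idi1, 0.193% for Fdps and 0.193% for Fdft1. That level was reached by 3 of the 4 other enzymes with Mvk, Mvd and Idi1, by 2 with Fdft1 and by 1 with Fdps. Fdps is read here by its probe 4. By probes 1 and 2, its r was 0.606 and 0.636 with Mvd and 0.706 and 0.694 with Idi1. Values of 1 array share its hybridization and its pool, and the percentages give how often genes correlate under those conditions.

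Mvd and Idi1, which act one after the other, had r = 0.727 (95% interval 0.669 to 0.775, n = 311) and a Spearman rho of 0.686. Mvd and Fdft1 followed with r = 0.621 (0.548 to 0.685) and rho 0.569, and Mvk and Fdft1, the first and the last enzyme, with r = 0.607 (0.532 to 0.673) and rho 0.559. These 3 intervals overlap. Idi1 and Fdps had r = 0.585 (0.507 to 0.654), Mvk and Mvd 0.550 (0.467 to 0.623), Mvk and Idi1 0.508 (0.420 to 0.586), Mvd and Fdps 0.497 (0.409 to 0.577), and Idi1 and Fdft1 0.488 (0.399 to 0.569), with rho of 0.576, 0.532, 0.448, 0.508 and 0.395 in the same order. The 5 intervals overlap. All r come from the same animals, and the differences between them were not tested.

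Over all arrays Fdps stood apart from both ends of the sequence. Its r was 0.240 with Fdft1 (0.132 to 0.342; rho 0.223), the enzyme that takes up its product, and 0.204 with Mvk (0.0951 to 0.308; rho 0.156), and both intervals lie below those of the other 8 pairs. Within the Eif2s3y sets Fdps and Fdft1 had 0.395 (0.254 to 0.521) in Eif2s3y-high arrays, close to the 0.3999 of Fdps and Mvd there, and 0.217 (0.0617 to 0.362) in Eif2s3y-low arrays. The two-sided permutation p over 100000 resamples was 4e-05 for r and 6e-05 for rho of Fdps with Fdft1, 0.00036 and 0.00615 for Fdps with Mvk, and 1e-05, the smallest the permutations can give, for the other 8 pairs. With the 2 most extreme animals of the earlier enzyme left out, r ranged from 0.212 for Mvk and Fdps to 0.698 for Mvd and Idi1. Averaged over its 4 partners, r was 0.599 for Mvd, 0.577 for Idi1, 0.489 for Fdft1, 0.467 for Mvk and 0.382 for Fdps, and the mean of the 10 pairs was 0.503. These values are for probe 4 of Fdps, and the place of Fdps depends on the probe. With every partner, r was higher by probes 1 and 2 (0.706 and 0.694 with Idi1) and lower by probe 3 (0.472 with Idi1).

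No hybridization batch is given in the sources used here, and the F2 number was used as the only available order. In 6 blocks of 51 or 52 animals by F2 number, Mvd and Idi1 kept r between 0.619 and 0.820. For Fdps and Fdft1 the range was -0.0440 to 0.507, and for Fdps and Mvk 0.0767 to 0.493. Each of the other 7 pairs was positive in all 6 blocks, the lowest value being 0.223 for Idi1 and Fdft1. Mvk itself fell with the F2 number (r = -0.186, permutation p = 0.00099), while for the other enzymes this p was 0.0811 or more. With the blocks as a covariate, 3320 genes were called with Mvk, against 4158 without. Its r was then 0.543 with Mvd, 0.540 with Idi1, 0.250 with Fdps and 0.596 with Fdft1. Among animals with F2 numbers up to the median of 186, the adjusted p was 0.239 for Fdps with Mvk (r = 0.153) and 0.222 for Fdps with Fdft1 (r = 0.137), whereas above 186 both passed, at r = 0.248 (adjusted p = 0.00964) and r = 0.339 (adjusted p = 0.000846).

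**Figure D2:**
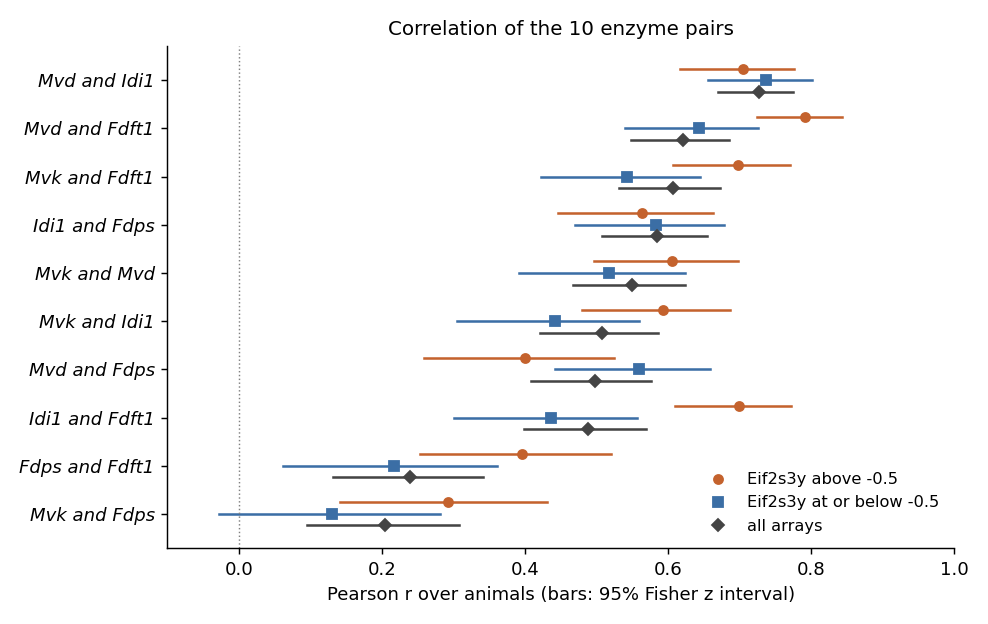
Pearson r of the 10 enzyme pairs with 95% Fisher z intervals, in Eif2s3y-high arrays (circles, n = 155), Eif2s3y-low arrays (squares, n = 156) and all arrays (diamonds, n = 311). Mvd with Idi1 lies between 0.705 and 0.737 in each set, Idi1 with Fdft1 at 0.700 in Eif2s3y-high and 0.437 in Eif2s3y-low arrays, and Mvk with Fdps is the lowest pair in each set.

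Within the Eif2s3y sets the enzymes stayed correlated, and Fdft1 followed Mvd and Idi1 on a steeper line in Eif2s3y-high arrays. All 10 pairs passed the test in Eif2s3y-high arrays and 9 of 10 in Eif2s3y-low arrays, where Mvk with Fdps gave r = 0.130 (adjusted p = 0.220 in limma). That missed call is for probe 4 of Fdps; in the same arrays r with Mvk was 0.247, 0.252 and 0.183 for probes 1 to 3, with permutation p of 0.00209, 0.00172 and 0.0255. The mean r of the 10 pairs was 0.575 in Eif2s3y-high and 0.481 in Eif2s3y-low arrays. For Mvd and Fdft1, r was 0.791 (0.724 to 0.844) in Eif2s3y-high and 0.643 (0.540 to 0.727) in Eif2s3y-low arrays, with rho 0.768 and 0.620. For Idi1 and Fdft1 it was 0.700 (0.609 to 0.772) in Eif2s3y-high and 0.437 (0.3005 to 0.556) in Eif2s3y-low arrays, with rho 0.616 and 0.388. Mvd and Idi1 had 0.705 in Eif2s3y-high and 0.737 in Eif2s3y-low arrays, and their intervals overlap.

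The slope tests the change of 1 enzyme per unit of another, both on the log10 scale, as a limma interaction adjusted over all genes. Fdft1 rose by 0.766 per unit of Mvd in Eif2s3y-high and by 0.444 in Eif2s3y-low arrays, a difference of 0.322 ± 0.0639 (SE; adjusted p = 0.00238), where 1.52% of genes differed in slope on Mvd. Per unit of Idi1 it rose by 0.548 in Eif2s3y-high and 0.288 in Eif2s3y-low arrays, a difference of 0.260 ± 0.0659 (adjusted p = 0.0235), where 0.931% of genes differed in slope on Idi1. Animals 210 and 265, both Eif2s3y-high, were the most distant from the median for Mvd and for Idi1. Without them, in a repeat chosen after seeing the data, the Mvd difference was 0.287 (adjusted p = 0.0322) and the Idi1 difference 0.211 (adjusted p = 0.177), so the Idi1 call rests on these 2 animals. The other 8 pairs did not pass; Fdft1 on Mvk came nearest, with 1.73 in Eif2s3y-high and 1.06 in Eif2s3y-low arrays (difference 0.661 ± 0.196 SE, adjusted p = 0.126). With Mvk and Fdps as the covariate, 0.246% and 0.167% of genes differed in slope.

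**Figure D3:**
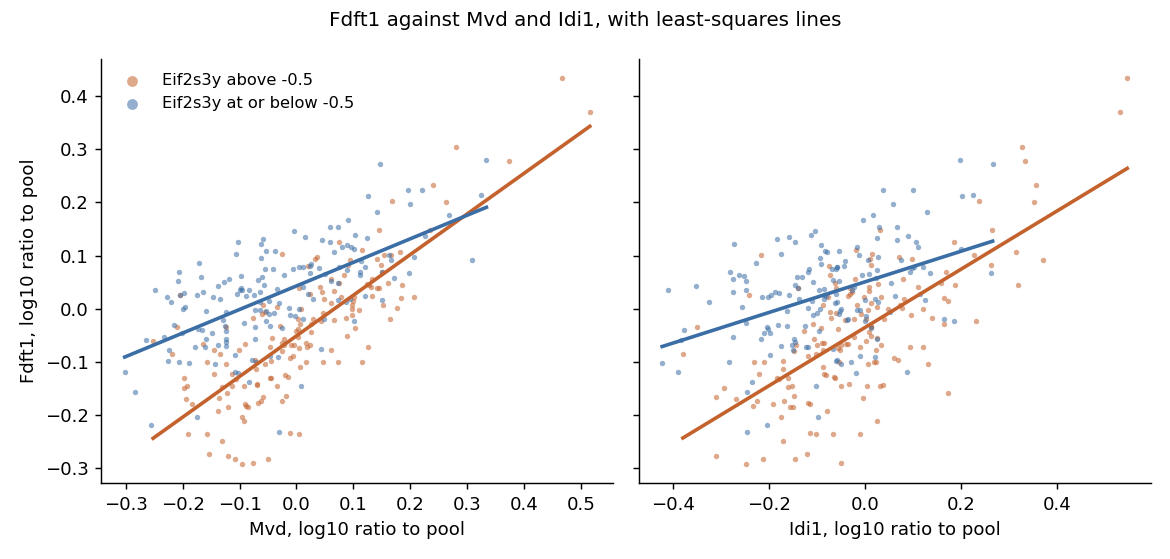
Fdft1 (vertical) against Mvd (left) and Idi1 (right), all as log10 ratios to the pool, 1 point per animal with the least-squares line of the Eif2s3y-high (155) and Eif2s3y-low (156) arrays. The Eif2s3y-high line is steeper in both panels (slopes 0.766 and 0.444 on Mvd, 0.548 and 0.288 on Idi1 for high and low) and lies lower at small values; the points at the upper right are animals 210 and 265.

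Levels between the sets moved in opposite directions for Fdft1 and for Mvd, Idi1 and Fdps. Fdft1 averaged -0.0439 ± 0.125 in Eif2s3y-high and 0.0281 ± 0.0915 in Eif2s3y-low arrays (SD, n = 155 and 156), which is 0.847-fold (95% interval 0.801 to 0.896, adjusted p = 5.95e-08 in limma). Idi1 averaged -0.0157 ± 0.159 in Eif2s3y-high and -0.0780 ± 0.139 in Eif2s3y-low arrays, a 1.15-fold difference (1.07 to 1.25, adjusted p = 0.000672). Fdps averaged -0.0691 ± 0.146 in Eif2s3y-high and -0.120 ± 0.153 in Eif2s3y-low arrays, 1.12-fold (1.04 to 1.21, adjusted p = 0.00626). The sets overlap over most of their range: 24.5% of Eif2s3y-high animals exceeded the median of Eif2s3y-low animals for Fdft1, and 66.5% did for Idi1.

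Mvd averaged 0.00972 ± 0.129 in Eif2s3y-high and -0.0330 ± 0.132 in Eif2s3y-low arrays, 1.10-fold (1.03 to 1.18, adjusted p = 0.00857). Mvk averaged 0.00142 ± 0.0504 in Eif2s3y-high and 0.00402 ± 0.0467 in Eif2s3y-low arrays, 0.994-fold (0.970 to 1.02, adjusted p = 0.718), and did not pass. Over all genes 26.5% were called higher and 29.7% lower in Eif2s3y-high arrays at the same threshold, so a call in either direction was common among genes at large. On the same array, the log10 difference of Idi1 minus Fdft1 was 0.0283 ± 0.114 in Eif2s3y-high and -0.106 ± 0.129 in Eif2s3y-low arrays, and that of Mvd minus Fdft1 was 0.0536 ± 0.0819 in Eif2s3y-high and -0.0611 ± 0.102 in Eif2s3y-low arrays, a 1.36-fold and a 1.302-fold shift. These shifts follow from the levels above and are given as a description.

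Calls on Mvd, Idi1 and Fdps each passed in only 1 part of the animals split by F2 number, where each part holds fewer animals. Up to F2 number 186 the limma difference was 0.0220 for Mvd (adjusted p = 0.399), 0.0449 for Idi1 (adjusted p = 0.101) and 0.0568 for Fdps (adjusted p = 0.0458). Above 186 it was 0.0630 for Mvd (adjusted p = 0.00988), 0.0810 for Idi1 (adjusted p = 0.00391) and 0.0436 for Fdps (adjusted p = 0.124). All were positive, and the change between the parts was not tested. Fdft1 stayed between -0.0885 and -0.0562 over 11 settings, several of which reuse the same probe and animals. Markers of macrophages moved with the sets: all 11 of 11 were lower in Eif2s3y-high arrays, and their mean log10 ratio per array ran from -0.265 to 0.169 (median -0.120) in Eif2s3y-high and from -0.204 to 0.312 (median 0.0303) in Eif2s3y-low arrays. Other marker lists moved too: 5 of 7 T and B cell markers were lower and 1 higher, with medians per array of -0.0421 in Eif2s3y-high and 0.0161 in Eif2s3y-low arrays. Stellate and matrix markers were higher in 4 of 7 (medians -0.00763 in Eif2s3y-high and -0.0508 in Eif2s3y-low arrays) and red cell markers in 2 of 3 (0.0415 in Eif2s3y-high and -0.142 in Eif2s3y-low arrays). These counts stand beside 26.5% of all genes called higher and 29.7% called lower in Eif2s3y-high arrays. Of the macrophage markers 8 were negative with Idi1 and 4 positive with Fdft1 over all arrays. The shares of all genes were 14.9% negative with Idi1 and 16.5% positive with Fdft1. Fewer cells of a type and less RNA per cell cannot be told apart in whole liver, and the part of these cell types in the level differences was not tested.

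The 4 probes of Fdps were positively correlated with one another but differed in amplitude and in the genes nearest to them. Probes 1 and 2, measured in 308 animals each, had r = 0.980 with each other and the widest spans, 7.34-fold and 8.34-fold between the 5th and 95th percentile. Probe 4, used for Fdps wherever no probe is named because it has no missing value, had r = 0.872 with probe 1 and 0.866 with probe 2. Probe 3, measured in 305 animals with a span of 2.82-fold, had r of 0.676 to 0.688 with the others but a rho of 0.781 to 0.806, and in 1 animal it lay at -2, the lower limit of the table. With the 2 most extreme animals of probe 3 left out, probes 3 and 4 had r = 0.811. All 6 probe pairs had a permutation p of 1e-05, the smallest possible, for r and for rho.

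Probes 1 and 2 followed the other enzymes more closely than probe 4 in value. With Idi1, r was 0.706, 0.694, 0.472 and 0.585 for probes 1 to 4, and with Mvd 0.606, 0.636, 0.455 and 0.497. With Fdft1 it was 0.289, 0.309, 0.206 and 0.240, and with Mvk 0.284, 0.271, 0.201 and 0.204. Over all arrays, Fdps thus had a higher r with Idi1 and Mvd than with Fdft1 and Mvk by every probe. In Eif2s3y-high arrays the values with Mvd and with Fdft1 were close, at 0.3999 and 0.395 for probe 4 and 0.420 and 0.388 for probe 3. Fdps was higher in Eif2s3y-high arrays by every probe, by up to 0.116 on the log10 scale. Where each probe lies in the gene was not analysed here.

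**Figure D4:**
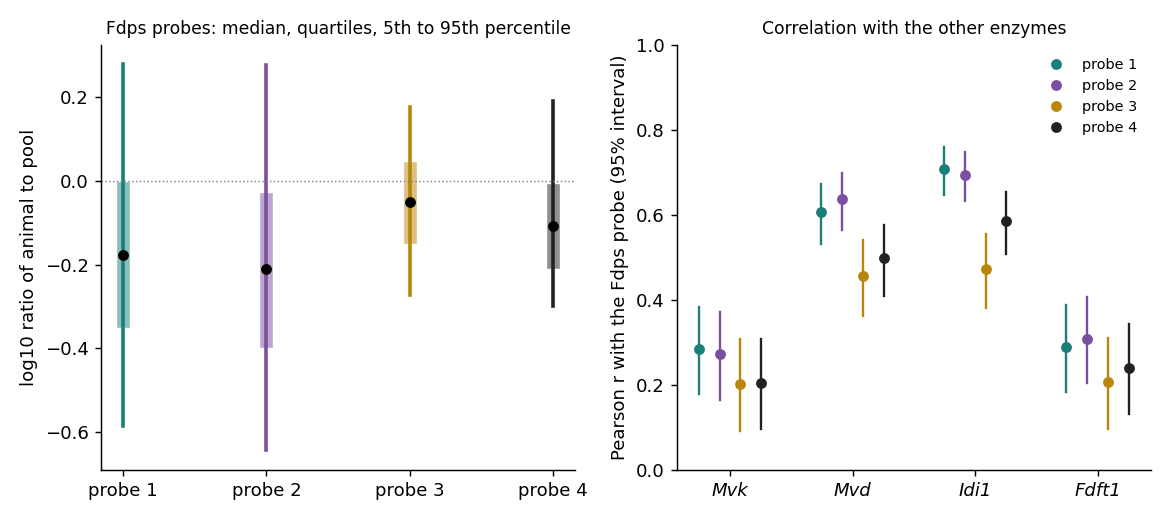
Left, log10 ratio of each Fdps probe over animals (dot, median; thick bar, quartiles; thin bar, 5th to 95th percentile); right, Pearson r over all arrays of each probe with the other 4 enzymes and its 95% interval. Probes 1 and 2 span 7.34-fold and 8.34-fold against 2.82-fold and 3.09-fold for probes 3 and 4, and each probe has a higher r with Idi1 and Mvd than with Mvk and Fdft1.

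Of the 10 genes that followed the 5 enzymes most closely, 5 were enzymes that make cholesterol from squalene, among them the first 4. Ranked by the mean r with the 5, Lss (lanosterol synthase) came first at 0.666, then Sqle (squalene epoxidase) at 0.646, Cyp51 (lanosterol demethylase) at 0.637 and Dhcr7, which makes cholesterol from its direct precursor, at 0.620. Rdh11, a retinol dehydrogenase, followed at 0.601, Erg28, whose yeast counterpart holds sterol enzymes together, at 0.586, and Nsdhl, a sterol dehydrogenase, at 0.586. Insig1, which keeps SREBP in the endoplasmic reticulum, had 0.524, Fads1, a fatty acid desaturase, 0.504, and Slc25a1, the mitochondrial citrate carrier, 0.503. The same ranking within the sets shared 8 of its first 10 genes. Fads1 and Zc3h12a were in the first 10 in Eif2s3y-high arrays alone, and Fasn and Insig1 in Eif2s3y-low arrays alone.

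Outside the 5 enzymes, the gene nearest to Idi1 was Cyp51, with r = 0.887 over all arrays, 0.895 in Eif2s3y-high and 0.896 in Eif2s3y-low arrays. For Mvd it was Dhcr7, with 0.865 over all, 0.858 in Eif2s3y-high and 0.868 in Eif2s3y-low arrays. These r exceed that between any 2 of the enzymes. Fdft1 was nearest to Erg28 at 0.759, and Mvk to Erg28 at 0.597. Of the 10 nearest genes, 6 for Idi1, 5 for Mvd, 4 for Mvk, 2 for Fdps and 1 for Fdft1 make cholesterol from squalene. Mvd and Idi1 shared 6 of their 10 nearest genes and Fdps and Fdft1 none, and 31 genes were nearest to at least 1 enzyme.

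Among its 10 nearest genes Mvk also had Srebf2 (0.534), the galactose enzyme Galt (0.477), B4galnt1 (0.506), which makes gangliosides, and the keratin Krt82 (0.493). Fdft1 had TLCD1 (0.664), Insig1 (0.629), Fads1 (0.606), Srebf2 (0.589) and Zc3h12a (0.567), an RNase that cuts inflammatory mRNAs. Fdps by probe 4 had a set unlike the others, led by Fbxw2 (0.616) and Arih2 (0.612), parts of ubiquitin ligases, and Epha1 (0.603), an ephrin receptor, ahead of Nsdhl (0.601), the splicing factor Prpf19 (0.582), the lysosomal channel Mcoln1 (0.577) and Sqle (0.572). This order depended on the probe. Probe 1 had Cyp51 (0.714), Sqle (0.706), Nsdhl (0.667) and Lss (0.659) in front, and probe 2 Cyp51 (0.723), Sqle (0.720), Dhcr7 (0.670) and Lss (0.667), with Arih2 at 0.632 and 0.611 and Fbxw2 at 0.594 and 0.575 by probes 1 and 2.

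The lowest mean r with the 5 enzymes belonged to Adam11 (-0.347), Pla2g12a (-0.290) and Abcg5 (-0.284). Abcg5, which pumps sterols into bile, had r = -0.499 with Mvd and -0.518 with Idi1. Ctsb, the lysosomal protease cathepsin B, had the lowest r with Idi1 at -0.530 (-0.516 in Eif2s3y-high and -0.482 in Eif2s3y-low arrays). Ctsb is also the gene next to Fdft1 in RefSeq order, where its r with Fdft1 was -0.00186. In Eif2s3y-high arrays the lowest mean r was that of Hamp, the iron hormone hepcidin, at -0.372, and in Eif2s3y-low arrays that of Adam11 at -0.399.

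The enzymes lie on chromosomes 5 (Mvk), 8 (Mvd), 13 (Idi1), 3 (Fdps) and 14 (Fdft1). Of the 10 nearest genes of each, those on the enzyme's own chromosome were 2 for Mvk (Insig1 and Cyp51), 1 for Fdps (Sh3d19) and 0 for the others. Mmab, which makes the cofactor form of vitamin B12 and lies next to Mvk, ranked 41 among all genes with Mvk (r = 0.411, adjusted p = 1.34e-11). The r of Mmab was 0.658 with Mvd and 0.503 with Idi1, which lie on other chromosomes. Whether its place next to Mvk bears on its r with Mvk was not tested. Wdr37, next to Idi1, had r = 0.246 with it (adjusted p = 0.000173). Both adjusted p are from limma over all genes.

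Beyond squalene, 9 of 12 genes were measured: Sqle, Lss, Cyp51, Lbr, Nsdhl, Hsd17b7, Ebp, Sc5d and Dhcr7. All 9 were positive with Mvk, Mvd, Idi1 and Fdft1, 8 were positive with Fdps, and 0 were negative with any. Their median r was 0.421 with Mvk, 0.723 with Mvd, 0.701 with Idi1, 0.495 with Fdps by probe 4 and 0.451 with Fdft1. The value for Fdps depended on the probe, at 0.628 by probe 1, 0.655 by probe 2 and 0.450 by probe 3. The median over all genes lay between -0.0171 and 0.00509. Ebp, a sterol isomerase, had the lowest r with 3 of the 5: 0.210 with Mvd, 0.209 with Idi1 and 0.108 with Fdps, the pair that did not pass. Like Fdft1, Ebp and Sc5d, a sterol desaturase, were lower in Eif2s3y-high arrays, with log10 differences of -0.0409 and -0.0300, while 6 of the 9 were higher there, such as Cyp51 with a difference of 0.121. Among all genes 26.5% were higher and 29.7% lower there.

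In Eif2s3y-high arrays the 9 genes had a median r of 0.630 with Fdft1, against 0.381 in Eif2s3y-low arrays. With Mvd it was 0.685 in Eif2s3y-high and 0.745 in Eif2s3y-low arrays, and with Fdps 0.377 and 0.504 in the same order. Cyp51 had r = 0.747 with Fdft1 in Eif2s3y-high, 0.491 in Eif2s3y-low and 0.451 over all arrays, where its level moved opposite to that of Fdft1 between the sets. The difference of these medians between the sets was not tested.

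**Figure D5:**
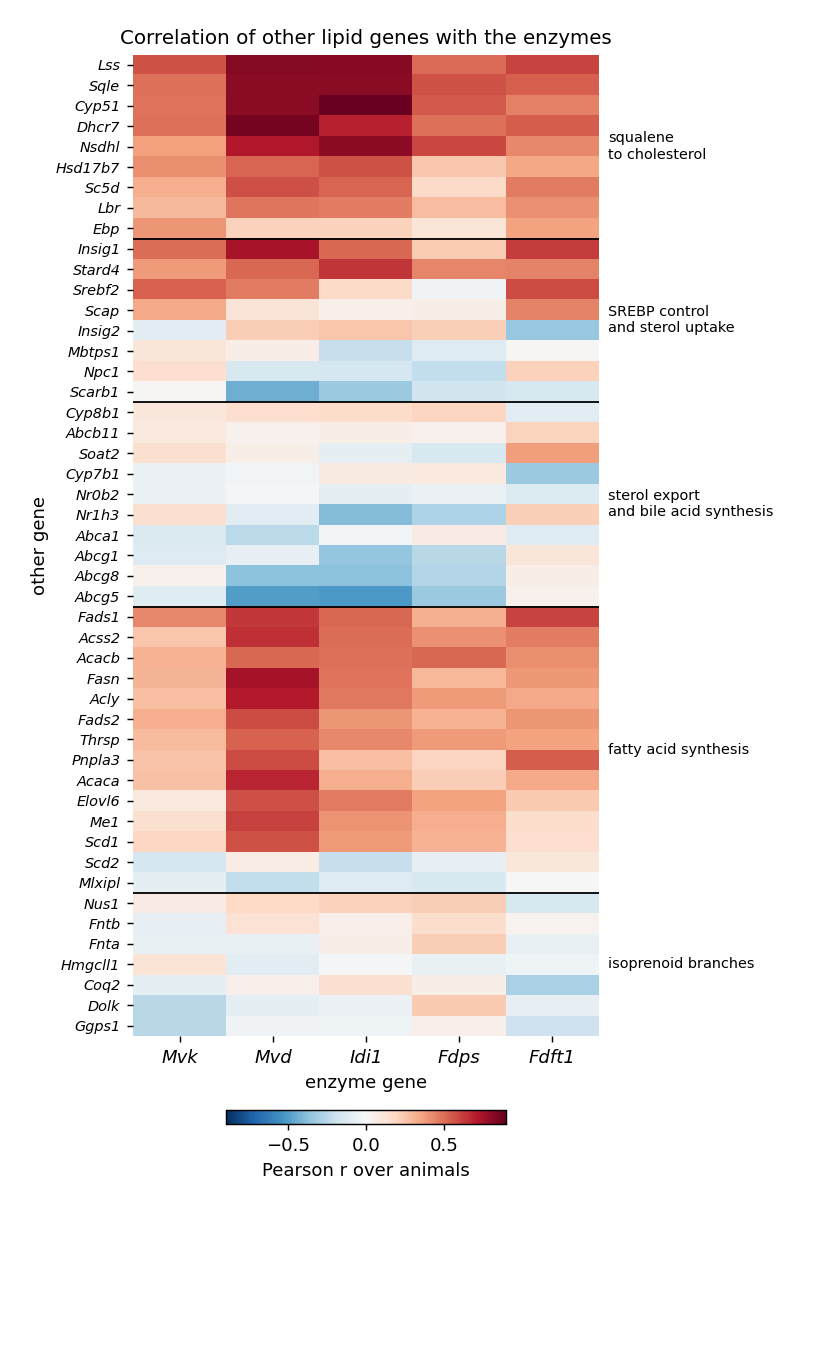
Pearson r over all arrays between each enzyme (columns) and the measured genes of 5 lists (rows, sorted by mean r within a list; red positive, blue negative, scale -0.9 to 0.9). Genes from squalene to cholesterol are red in every column and darkest for Mvd and Idi1, Srebf2 is red for Mvk, Mvd and Fdft1 and near white for Fdps, Abcg5 and Abcg8 are blue for Mvd and Idi1, and the isoprenoid branches are paler, the largest in size being Coq2 with Fdft1 at -0.289.

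Genes that control or read sterol supply had unequal r with the enzymes, although the differences between these r were not tested. Srebf2 had r = 0.589 with Fdft1, 0.534 with Mvk and 0.467 with Mvd, but 0.172 with Idi1 and -0.0331 with Fdps, which alone did not pass. In Eif2s3y-high arrays its r was 0.669 with Fdft1, 0.503 with Mvk, 0.688 with Mvd, 0.322 with Idi1 and 0.0992 with Fdps. In Eif2s3y-low arrays it was 0.435, 0.581, 0.337, 0.0975 and -0.101 in the same order, so Fdps was lowest in both. Scap, the escort protein of SREBP, passed with Fdft1 (0.446) and Mvk (0.344) and had 0.117, 0.0472 and 0.0505 with Mvd, Idi1 and Fdps. Of the 8 of 15 measured genes of this list, the numbers positive and negative were 5 and 0 with Mvk, 4 and 2 with Mvd, 4 and 3 with Idi1, 3 and 2 with Fdps, and 5 and 2 with Fdft1.

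Insig1 and Stard4, a carrier of cholesterol between membranes, were positive with all 5. Insig1 had 0.739 with Mvd and 0.231 with Fdps, and Stard4 had 0.641 with Idi1 and 0.385 with Mvk. Scarb1, the receptor for high-density lipoprotein, had r = -0.441 with Mvd and -0.336 with Idi1, and 0.00751 with Mvk. Insig2 went with Fdft1 at -0.340 and with Idi1 at 0.249, and its level was higher in Eif2s3y-high arrays (log10 difference 0.173), the direction of Idi1. Within the sets it had -0.250 in Eif2s3y-high and -0.193 in Eif2s3y-low arrays with Fdft1, and 0.000120 in Eif2s3y-high and 0.335 in Eif2s3y-low arrays with Idi1. Whether the r of Insig2 with Idi1 differs between the sets was not tested.

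Several genes of sterol export were negative with Mvd, Idi1 and Fdps. Of 10 of 14 measured genes for export and bile acids, the numbers called positive and negative by limma were 1 and 3 with Mvd, 1 and 4 with Idi1, 1 and 5 with Fdps, 3 and 1 with Fdft1, and 2 and 0 with Mvk, for which the counts at an unadjusted p under 0.05 were 2 and 2. Abcg8, the partner of Abcg5, had r = -0.372 with Mvd, -0.373 with Idi1 and -0.264 with Fdps, against 0.0591 with Fdft1 and 0.0354 with Mvk. Nr1h3, the sterol receptor LXR alpha, had -0.387 with Idi1 and -0.279 with Fdps, and 0.214 with Fdft1. Its level was lower in Eif2s3y-high arrays (log10 difference -0.0449), and within the sets it had -0.254 in Eif2s3y-high and -0.428 in Eif2s3y-low arrays with Idi1, and 0.136 in Eif2s3y-high and -0.00818 in Eif2s3y-low arrays with Fdft1.

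Fatty acid synthesis, driven by the related factor SREBP-1, followed Mvd more closely in value than the other enzymes. Of 14 of 17 measured genes, 12 were positive with Mvd, Idi1, Fdps and Fdft1 and 11 with Mvk. The median r was 0.589 with Mvd, 0.418 with Idi1, 0.351 with Fdft1, 0.317 with Fdps and 0.262 with Mvk. Fasn, fatty acid synthase, had 0.748 with Mvd and 0.488 with Idi1, Acly, which makes cytosolic acetyl-CoA, 0.714 and 0.477, and Acaca, acetyl-CoA carboxylase, 0.686 and 0.325, in the same order. At r of 0.5 or more stood 12 of the 14 genes with Mvd, against 2 with Idi1, 1 with Fdps, 2 with Fdft1 and 0 with Mvk. With Idi1 the median was 0.325 in Eif2s3y-high and 0.516 in Eif2s3y-low arrays, and with Fdps 0.167 in Eif2s3y-high and 0.439 in Eif2s3y-low arrays.

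Branches that use the isoprenoids for other ends had low r with the enzymes. Of 7 of 12 measured genes, the numbers positive and negative were 0 and 2 with Mvk, 1 and 0 with Mvd, 2 and 0 with Idi1, 4 and 0 with Fdps, and 0 and 3 with Fdft1. Ggps1, which draws on farnesyl diphosphate to make geranylgeranyl diphosphate, had r = -0.247 with Mvk, -0.189 with Fdft1 and 0.0456 with Fdps. Dolk, dolichol kinase, had 0.237 with Fdps and -0.247 with Mvk, and Fnta, the shared subunit of enzymes that attach isoprenoids to proteins, 0.223 with Fdps and -0.0671 with Mvk. Coq2, which builds ubiquinone, had -0.289 with Fdft1, the largest r of the list in size, and -0.196 in Eif2s3y-high and -0.145 in Eif2s3y-low arrays. The median of the list was 0.158 with Fdps and -0.0760 with Fdft1, and the shares called can be read against 14.3% of all genes positive with Fdps and 17.4% negative with Fdft1.

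Some clock genes followed Mvk and Fdft1. Of 14 of 16 measured genes, 7 were positive and 2 negative with Mvk and 6 and 2 with Fdft1, against 1 and 2 with Mvd, 0 and 1 with Idi1, and 1 and 0 with Fdps, where 19.8% of all genes were positive and 16.7% negative with Mvk, and 16.5% positive and 17.4% negative with Fdft1. Between the sets 8 of the 14 were lower and 2 higher in Eif2s3y-high arrays, and Fdft1 was lower there too. Among all genes 29.7% were lower and 26.5% higher there. The median r of the 14 with Mvk was 0.172 in Eif2s3y-high and 0.0128 in Eif2s3y-low arrays, and with Fdft1 0.102 in Eif2s3y-high and 0.00727 in Eif2s3y-low arrays. Per2, a repressor of the clock, had r = 0.411 with Fdft1 and 0.184 with Mvk, and -0.0655, -0.0540 and -0.0633 with Mvd, Idi1 and Fdps. Arntl, the activator that peaks at the opposite time, had -0.341 with Fdft1 and -0.171 with Mvk. For Fdft1 and Per2 r was 0.329 in Eif2s3y-high and 0.363 in Eif2s3y-low arrays. For Mvk and Per2 the values were 0.314 in Eif2s3y-high and 0.0583 in Eif2s3y-low arrays. The time of day at which livers were taken is not given in the sources used here.

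Transcripts of other tissues and cell types followed the enzymes to unequal degrees. Of 4 pancreas and 6 skeletal muscle markers measured, 0 were called with any enzyme by limma, with r between -0.0812 and 0.126, and 2 of the 50 tests had an unadjusted p under 0.05; 11 arrays carried a marker of either tissue at or above 1. Red cell markers, of which 3 of 5 were measured, were positive with Idi1 in 3 (r of 0.149 to 0.184), with Fdps in 2 and with Mvd in 1, and negative with Fdft1 in 1 (-0.338). Within the sets the median of the 3 with Idi1 was 0.201 in Eif2s3y-high and 0.0554 in Eif2s3y-low arrays. With Fdft1 it was 0.177 in Eif2s3y-high and -0.159 in Eif2s3y-low arrays. Of 3 adipose markers 1 was negative with Fdft1 (-0.304), and the median of the 3 was -0.0746 in Eif2s3y-high and -0.0617 in Eif2s3y-low arrays. Macrophage markers were negative with Idi1 in 8 of 11, with Fdps in 6, with Mvk in 5 and with Mvd in 3. For these lists, the share of all genes called positive was 12.4% with Idi1, 14.3% with Fdps and 10.7% with Mvd. The share called negative was 16.7% with Mvk, 11.7% with Mvd, 14.9% with Idi1, 17.2% with Fdps and 17.4% with Fdft1. Within the sets the median of the 11 with Idi1 was -0.00872 in Eif2s3y-high and -0.209 in Eif2s3y-low arrays, and with Fdft1 0.0721 in Eif2s3y-high and -0.0794 in Eif2s3y-low arrays. Acute phase genes, of which 8 of 13 were measured, were negative with Fdft1 in 6, Saa1 having -0.364. Their median with Fdft1 was -0.257 in Eif2s3y-high and -0.0921 in Eif2s3y-low arrays. Stellate and matrix markers, of which 7 of 9 were measured, were negative with Mvk in 4 and with Fdft1 in 4. With Fdps 1 was positive and 1 negative, and with Idi1 1 was positive. Their median r was -0.206 with Mvk and -0.186 with Fdft1. With Fdft1 it was -0.234 in Eif2s3y-high and -0.00159 in Eif2s3y-low arrays.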

How the data were processed

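Liver RNA of 311 F2 mice was measured on 2-color arrays, with the pool of all animals as the second channel, and the labels give 1 group. The deposited values were read as log10 ratios. They were normalized by the authors (the method is not given in the sources used here) and limited to -2 and 2, with 0.745% missing. They were used as deposited. Medians of single arrays ranged from -0.0218 to 0.0172 and their SDs from 0.0658 to 0.206. Of 48205 pairs of arrays, 131 had r under -0.3 (lowest -0.435), and no sign was turned, since the dyes of each array are labelled. The F2 number of 1 sample was taken from its title, from which its source name differs, and descriptions name more mice than the 311 of the design. Arrays carry no counts, so their number limits the precision.

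Of 23388 probes, 13645 named 1 gene in the platform's table, with symbols updated through the RefSeq table of GRCm38.p6, 48 named several and 9695 none. Probes present on at least 95% of arrays were kept, and 1 probe stood for each of 11387 genes: the most complete, or of equals the first listed. The labels do not say which animals were littermates or shared an array day, and p-values measure the spread between these animals.

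limma 3.58.1 in R 4.3.3 fitted every gene on the value of 1 enzyme, on the Eif2s3y set (above minus at or below -0.5) and on their interaction, with Benjamini-Hochberg adjustment over all genes at 0.05. Pearson r and Spearman rho had two-sided permutation tests with 100000 resamples and the seed 2814. Probes were called clustered where a fit of 2 normals had a BIC better by 10 than 1 normal or Student t, a minor weight of 0.1 or more and Ashman D of 2 or more. Named genes are those of the lists, the 10 nearest and 3 lowest genes of each enzyme, and the highest and lowest by mean r. Neighbours in RefSeq order were added after seeing the data. The enzymes, lists and tests were chosen with earlier results of these data known.

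The fits were tested on simulated data of 11387 genes with 100 planted genes of each size. Genes without a planted effect were drawn independently of each other, so the false calls do not carry over to genes that share an array. Following Mvd, 52 were recovered at the smaller size and 100 at the larger, with 8 false calls. For level the numbers were 81 and 100 with 12 false calls, and for the slope on Mvd 82 and 100 with 16. Alternatives were centring each array, other probes or filters, subsets of animals, covariates, rank correlation and other splits. Python 3.11.15, scipy 1.17.1 and matplotlib 3.10.9 were also used.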

Additional observations from a re-analysis of the deposited data

Results flagged for a closer look

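The slope of Fdft1 on Mvd differed between the Eif2s3y-high and Eif2s3y-low arrays by 0.322 (SE 0.0639), at 0.766 in 155 Eif2s3y-high and 0.444 in 156 Eif2s3y-low arrays, with an adjusted p of 0.00238 for the interaction in limma. The slope of Fdft1 on Idi1 differed by 0.260 (SE 0.0659), at 0.548 in Eif2s3y-high and 0.288 in Eif2s3y-low arrays, with an adjusted p of 0.0235. Both are listed because the relation itself differed between the sets. With animals 210 and 265 left out, the most extreme of the covariate, the first remained past the threshold (0.287, adjusted p = 0.0322) and the second did not (0.211, adjusted p = 0.177).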

How the results depend on the processing

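Among repeats under other settings, 422 kept their direction and their side of the threshold, or their size within 1.5 times, 27 counts or SDs moved further, 7 calls were lost and 0 reversed. Part of this agreement was fixed in advance. The other filters on missing values kept the same enzyme probes, so r, SD and level of the enzymes could not change there. Choosing the most variable probe changed only Fdps among the enzymes. The calls lost were r of Mvk and Fdps (0.153) and of Fdps and Fdft1 (0.137) and the level differences of Mvd (0.0220) and Idi1 (0.0449) among F2 numbers up to 186, the level difference of Fdps (0.0436) above 186, r of Mvk and Fdps (0.130) in Eif2s3y-low arrays, and the slope of Fdft1 on Idi1 (0.211) without 2 animals. Each of these fits had fewer animals and also a smaller estimate than the main fit, and the cause was not tested. Over 16 settings, several of which reuse the same values, r of Mvd and Idi1 ran from 0.686 to 0.740. That of Idi1 and Fdft1 ran from 0.395 to 0.700.

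Genes called in either direction numbered 4158 with Mvk, 2543 with Mvd, 3109 with Idi1, 3588 with Fdps and 3863 with Fdft1, and at r of 0.5 or more 8, 42, 25, 22 and 22. Among the 6559 genes other than the enzyme with a probe on every array they were 2507 with Mvk, 2321 with Fdps and 2522 with Fdft1, and 14 at r of 0.5 with Fdps. Up to F2 number 186 they were 748, 1364, 1393 and 2276 with Mvk, Mvd, Idi1 and Fdps, and 37 at r of 0.5 with Fdps. Above 186 they were 1472, 1444 and 2005 with Mvd, Fdps and Fdft1, and 32 at r of 0.5 with Mvk. In Eif2s3y-high arrays they were 2057, 1683, 839, 1042 and 1050 in pathway order, and 19 at r of 0.5 with Mvk. In Eif2s3y-low arrays they were 1449 with Mvd and 1506 with Fdft1, and 66, 49 and 38 at r of 0.5 with Mvd, Idi1 and Fdps. With Eif2s3y as a covariate 2490 were called with Fdft1. With the most variable probe per gene the SD of Fdps was 0.280, and 36 genes reached r of 0.5 with it. The limits of the table at -2 and 2 touched 1 value of 1 Fdps probe.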
